A study of Mus musculus with 4 samples.

Results

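Ribosomal protein genes encode the structural proteins of the cytosolic ribosome, which are built with ribosomal RNA into a small subunit that reads the mRNA and a large subunit that joins amino acids. Their mRNAs are among the most abundant in most cells, and many carry a terminal oligopyrimidine tract, an unbroken stretch of C and T at the 5′ end through which their translation is controlled together with that of elongation factors. Dividing basal keratinocytes and protein-synthesising dermal cells both depend on ribosome production.

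Members were chosen by symbol alone: probe sets that name 1 gene whose symbol is Rpl or Rps followed by a digit, or Rplp0, Rplp1, Rplp2 or Rpsa, without pseudogene symbols and the Rps6k kinases, taking the brightest probe set of each gene. The rule gave 37 genes among 13674 named on the arrays, 35 from the first of 2 array types, 2 from the second and none from both. RNA came from whole skin of FVB/N mice at postnatal day 0, either loricrin knockout (loricrin is the main protein of the cornified envelope) or wildtype, with 1 array per genotype on each array type, so the ratios have no replicate error and no test. The labels call the second pair of arrays replicates of the first, but its probe sets differ. The sources used here do not say how the loricrin allele was made, how many animals were pooled or whether the second arrays held other animals. Of the 2 genes on the second type, Rpl27 was below the floor in both arrays, and Rps19bp1 encodes a binding partner of a ribosomal protein and not a ribosomal protein. Rpl7l1 on the first type encodes a relative of Rpl7, and Rps4l is listed by RefSeq as a transcribed pseudogene.

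Values are MAS5 signals, scaled so that both arrays of a type had the same trimmed mean. A floor (77.6 for the first type, 133 for the second) replaced lower signals in ratios, and a gene was counted where its mean log2 signal lay above it. Loricrin read 2013 in knockout and 41224 in wildtype. Xist read 857 and 24.7 and the Y-linked Eif2s3y 42.7 and 1071, so sex and genotype cannot be told apart. Actin control probe sets on the first type had a 3′ to 5′ signal ratio of 2.63 (knockout) and 2.16 (wildtype), and the Gapdh ones 1.15 and 1.14. The part of RNA quality in the results was not tested.

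The start sites of 8 members are shown, since the oligopyrimidine tract begins there and these genes span the members' ratios from the lowest to the highest. Sequences come from RefSeq (GRCm38.p6) on the gene's strand, with 15 bases before the listed start and 15 from it on, and capitals mark the unbroken run of C and T that holds the start base. The first 4 have a run of at least 5 bases from the start on, the last 4 do not.
Rps10, chr17:27635230-27635259, minus strand: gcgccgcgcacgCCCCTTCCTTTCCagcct
Rps18, chr17:33955651-33955680, minus strand: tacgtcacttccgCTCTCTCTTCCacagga
Rpl7a, chr2:26910792-26910821, plus strand: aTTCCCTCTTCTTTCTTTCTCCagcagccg
Rps27, chr3:90213634-90213663, minus strand: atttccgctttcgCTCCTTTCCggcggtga
Rps3, chr7:99483695-99483724, minus strand: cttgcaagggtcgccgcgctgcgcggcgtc
Rpl41, chr10:128549154-128549183, minus strand: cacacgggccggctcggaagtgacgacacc
Rps13, chr7:116334176-116334205, minus strand: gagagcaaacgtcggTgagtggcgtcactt
Rpl22, chr4:152325711-152325740, plus strand: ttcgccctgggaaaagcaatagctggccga

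RefSeq windows of 300 bases, 250 before and 50 after the start, were matched to 30 of the 37 members, taking the first listed start. A C and T run of at least 5 bases from the start on was present in 6 of the 30 and in 4.36% of all 27025 gene windows. The letters CCGGAAGT, an Ets-type motif, lay on either strand in 5 of the 30 against 1081 of the 27025 windows, AAGATGGC in 4 against 2.88%, and the TATA box letters TATAAA in 3 against 14.2%. A listed start can lie some bases from the true one, and a match is a description of these letters. Over the 22 members with a window and a signal above the floor, the run length had a Pearson correlation of 0.035 with the log2 ratio, all points coming from the same pair of arrays.

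On the first array type most ribosomal protein mRNAs gave lower signals in knockout than in wildtype skin relative to the array's trimmed mean. Under scaling on spike-in controls most of their ratios turned above 0, where most genes then lay. Whether the spike-in controls follow the amount of RNA was not tested. Of the 35 genes, 26 lay above the floor and 25 of these had a ratio below 0, where 47.3% of all 5653 genes above the floor did, and the median log2 ratio was -0.44 against 0.024 for all genes. Under spike-in scaling the members' median was 0.24 and that of all genes 0.70, and all 26 members lay below the latter. There 1 of the 26 members and 4.99% of all genes were below 0. A log2 ratio of -0.321928 or lower, called the lower limit from here on, was found for 21 of the 26 members and for 18.3% of all genes. Under quantile normalization and under loess 2 of the 26 members reached it, and the members' median was -0.045 and -0.15. The share of all genes reaching that limit under these scalings is not given here. Below 0 were 20 and 26 of the 26 members, against 47.5% and 48.3% of all genes. On the trimmed-mean scaling, at least 2-fold lower was 1 of 26, Rps13, against 1.79%, and none was at least 2-fold higher, against 1.15%. In whole skin, fewer cells of a type and less RNA per cell cannot be told apart.

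**Figure D1:**
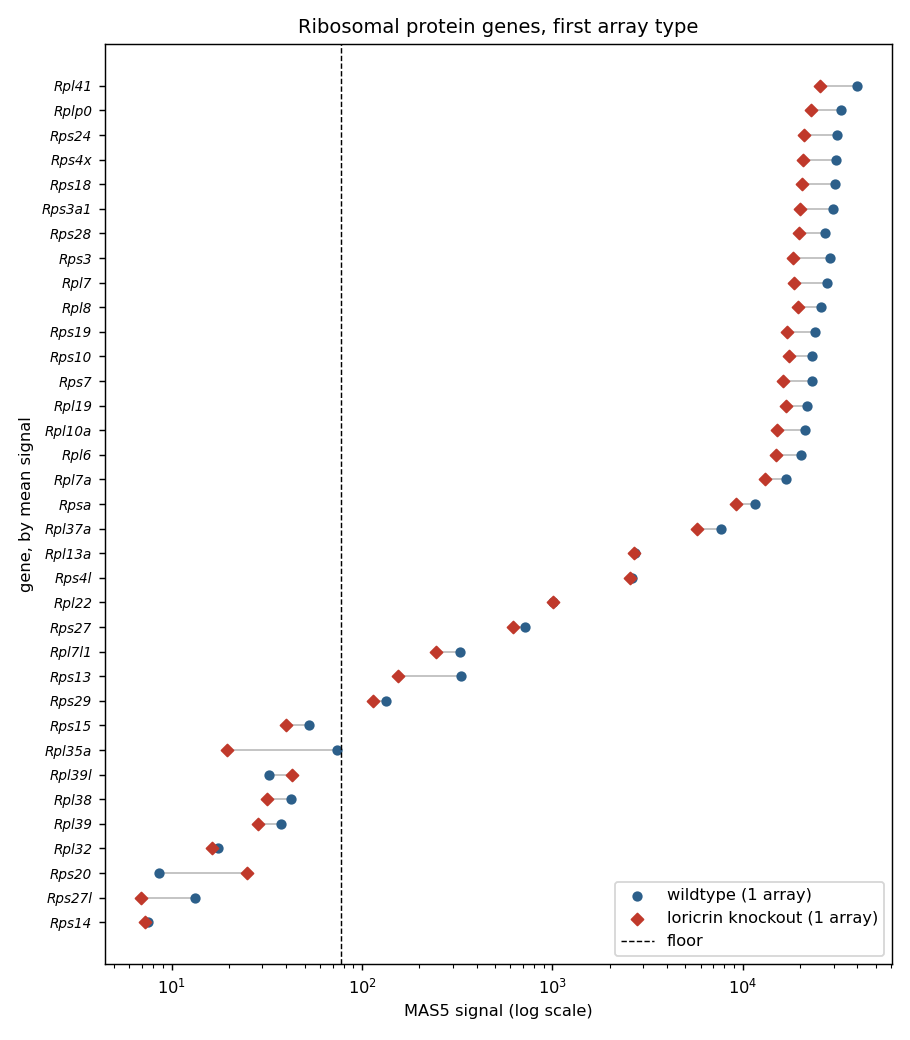
Signals of the 35 ribosomal protein genes of the first array type in the knockout (diamonds) and wildtype (circles) array, on a log axis, ordered by mean signal, with the floor of 77.6 as a dashed line. The 19 brightest genes have the diamond to the left of the circle on this scaling. It would lie to the right under spike-in scaling, where 4.99% of all genes were below 0. Below the floor lie 9 genes.

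Among small subunit genes, Rps3, whose protein lines the mRNA entry channel, had a knockout signal of 18283 and a wildtype signal of 28621 (log2 ratio -0.65), the lowest ratio among bright members. The X-linked Rps4x read 20655 and 30701 (-0.57), Rps18 20534 and 30459 (-0.57) and Rps3a1 20027 and 29691 (-0.57). Rps24 read 20981 and 31193 (-0.57), but its probe set lists the same GenBank accession as that of Rpl7, while the other Rps24 probe set lay below the floor at 48.2 and 70.1. The files do not settle which gene the bright one reads. All 5 were lower in knockout, and higher under spike-in scaling, where Rps3 stood at 0.040.

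Rps19, mutated in Diamond-Blackfan anaemia, had a knockout signal of 17117 and a wildtype signal of 23838 (log2 ratio -0.48). Rps28 read 19759 and 27116 (-0.46), Rps7 16287 and 22966 (-0.50), and Rps10 17466 and 23149 (-0.41). Rpsa, also known as the laminin receptor, had the ratio nearest 0 of the bright members, at 9227 and 11562 (-0.33). Each of these was at or below the lower limit, and above 0 under spike-in scaling.

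Rps13 stood apart. It had a knockout signal of 154 and a wildtype signal of 329 (log2 ratio -1.10, 2.14-fold lower), from a single probe set whose suffix marks less specific probes. Its ratio was -0.41 under spike-in scaling. Adding the floor as a pseudocount made it -0.81, and its mean signal lay under a floor set at percentile 60. The dim Rps27 (623 and 714, log2 ratio -0.20) and Rps29 (114 and 134, -0.24) moved less. A far brighter probe set that names both Rps27 and Rps27rt, and so falls outside the rule, read 16809 and 22824 (-0.44). Rps4l, the transcribed pseudogene, read 2544 and 2611 (-0.04). The probe sets used for Rps4l, Rps24, Rpl7 and Rpl41 also have suffixes that mark shared or less specific probes.

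Among large subunit genes, Rpl41, which encodes one of the shortest known eukaryotic proteins, was the brightest member with 25562 in the knockout array and 39644 in the wildtype array (log2 ratio -0.63). Rplp0, the anchor of the stalk that recruits elongation factors, read 22824 and 32745 (-0.52). Rpl7 read 18505 and 27853 (-0.59), from the probe set named above beside that of Rps24. Whether both probe sets read separate mRNAs was not tested. The other Rpl7 probe set lay below the floor at 26.8 and 7.15. Its relative Rpl7l1 read 244 and 327 (-0.42).

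Rpl10a read 15095 in knockout and 21217 in wildtype (log2 ratio -0.49), Rpl6 14918 and 20132 (-0.43), and Rpl37a 5747 and 7694 (-0.42). Rpl8 read 19613 and 25633 (-0.39), Rpl19 16883 and 21809 (-0.37), and Rpl7a 13096 and 16782 (-0.36). All 6 were at or below the lower limit, and above 0 under spike-in scaling.

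Both genes nearest 0 belong to the large subunit. Rpl22, an RNA-binding ribosomal protein that cells can do without, had a knockout signal of 1011 and a wildtype signal of 1010 (log2 ratio 0.00073), and its second probe set one of 140 and 116 (0.26). Rpl13a, also known for silencing inflammatory mRNAs, read 2684 and 2732 (-0.03). The median was -0.42 over the 12 large subunit genes above the floor and -0.49 over the 14 small subunit genes, with ranges from -0.63 to 0.00073 and from -1.10 to -0.04 that overlap over most of their length.

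The 9 members below the floor on the first type were Rpl32, Rpl35a, Rpl38, Rpl39, Rpl39l, Rps14, Rps15, Rps20 and Rps27l, with signals from 6.87 to 74.3, and they give no ratio. Most encode core ribosomal proteins, and for Rps14 a shared probe set of the second type read 1260 and 1770. Probe sets of 1 gene often disagreed in brightness: Rps4x had 5 probe sets, of which 4 were below the floor. Where a gene had more than 1 probe set above the floor, the ratios were -0.49 and -0.44 for Rpl10a and -0.46 and -0.56 for Rps28, beside the Rpl22 pair above.

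Many ribosomal protein genes are measured only by probe sets that also name pseudogenes or close relatives. These fall outside the rule and were examined after the members' values were seen. On the first type 34 of 39 such probe sets lay above the floor, with a median of -0.44, as for the members. Of these, 31 had a ratio below 0 and 26 were at or below the lower limit, against 47.3% and 18.3% of all genes. They were read on the same pair of arrays as the members. Many were bright, and 67 other genes with a mean signal of 10000 or more had a median of -0.36. Values of the shared probe sets under other scalings are not given here. The stalk gene Rplp1 read 23484 in knockout and 34608 in wildtype (log2 ratio -0.56), Rps26 15682 and 26887 (-0.78), and the X-linked Rpl10 19273 and 27721 (-0.52). Rpl13 read 21146 and 29995 (-0.50). Rpl12 differed between its probe sets, at -1.17 on the dimmer and -0.32 on the brighter. So did Rpl10, whose dimmer probe set read 3570 and 3531 (0.02), and Rpl34, at -0.55 on its brightest and 0.14 on a dimmer.

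The second array type gave few values. Rps19bp1 had a knockout signal of 1836 and a wildtype signal of 2384 (log2 ratio -0.38), where 22.1% of all 5139 genes above the floor were at or below the lower limit and 49.2% were below 0. Its ratio was 0.27 under spike-in scaling. Of 5 shared probe sets there, 4 lay above the floor. Rpl31 read 37506 and 43172 (-0.20), Rps14 1260 and 1770 (-0.49), Rpl9 466 and 540 (-0.21) and Rpl27a 511 and 575 (-0.17). Rpl27a could be set beside the first type, where its probe sets gave -0.47 and -0.29.

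Most measured members were among the brightest genes. Of the 50 brightest genes of the first type 17 were members, and the members' summed signal was 3.83% of all signal in knockout and 4.92% in wildtype. On this scaling other bright genes also leaned below 0. Among the 566 genes of highest signal, 20 of them members, the other genes had a median log2 ratio of -0.10, while the median over other genes was 0.073 in the next 565 genes. A mean signal of 5000, a limit set after the values were seen, left 19 members with a median of -0.49 (SD over genes 0.097) and 230 other genes with a median of -0.21 (SD 0.41). At or below the lower limit were all 19 of these members and 73 of the 230 other genes, or 31.7%. With the limit at 10000 the medians were -0.49 over 18 members and -0.36 over 67 other genes, of which 39 were at or below the lower limit.

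**Figure D2:**
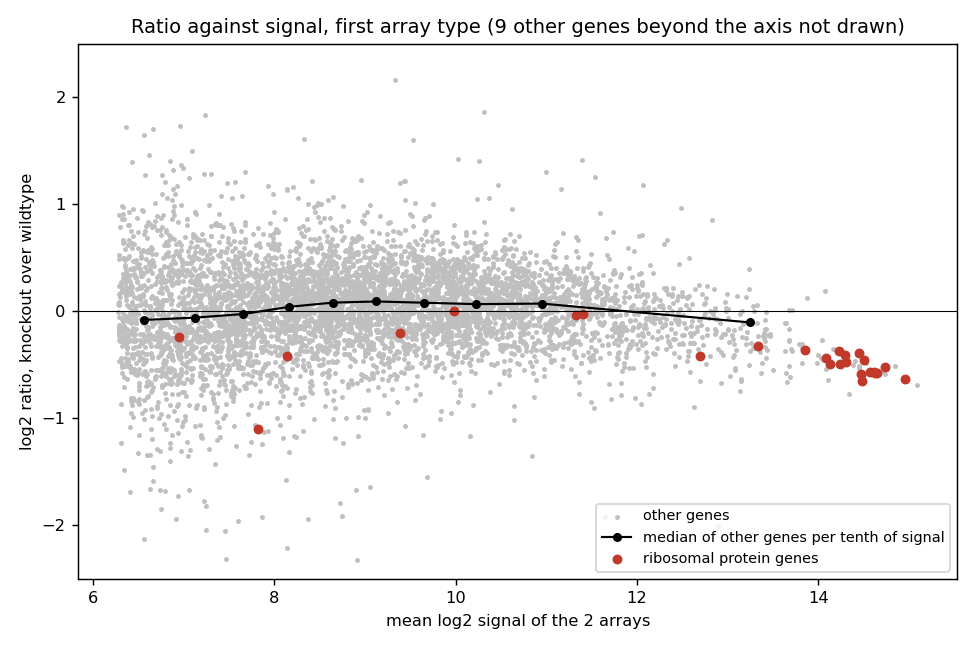
Log2 ratio of knockout over wildtype against mean log2 signal for genes above the floor on the first array type, with ribosomal protein genes in red, other genes in grey and the median of other genes in equal bands of signal in black. The black line turns down to -0.10 in the brightest band, and the 19 brightest red points lie between -0.33 and -0.65, all above 0 under spike-in scaling.

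Scalings that follow the signal brought the medians of bright genes nearer 0. They were computed with the members' own probe sets included, and 17 of the 50 brightest genes were members. These scalings can therefore take away part of a shift that the members themselves make. Under quantile normalization the 19 bright members had a median of -0.027 and the 230 other bright genes one of 0.0077. Under loess the medians were -0.15 and -0.0099. The difference between both medians, -0.28 before, was -0.035 under quantile normalization and -0.14 under loess. The spike-in probe sets had a mean log2 ratio of -0.69 (SD 0.10 over 9 probe sets) on the first type, lower than the median of the members.

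**Figure D3:**
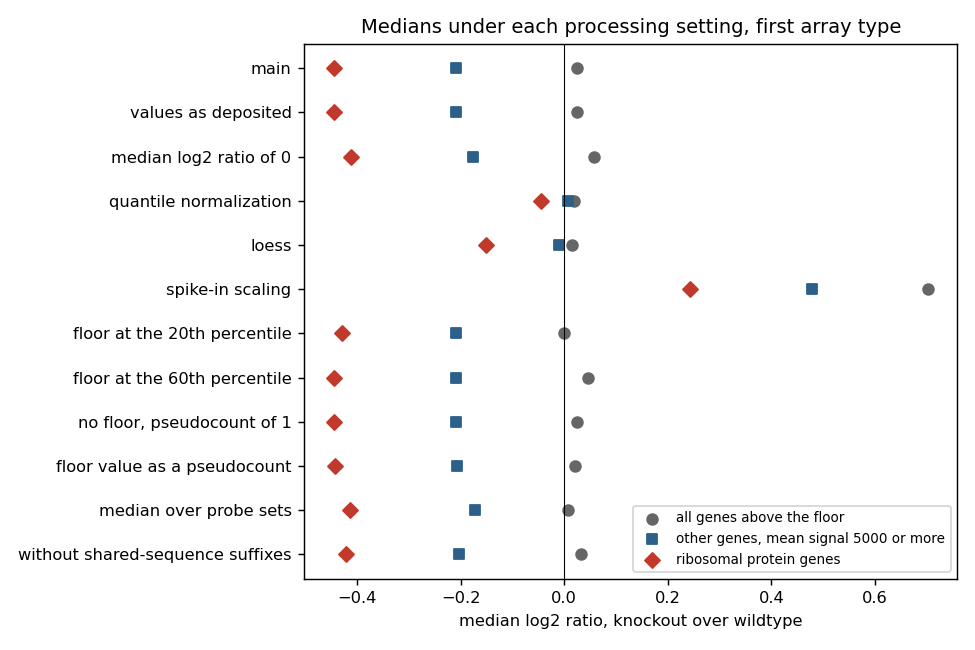
Median log2 ratio of knockout over wildtype on the first array type under the main and 11 alternative settings, for the ribosomal protein genes (diamonds), all genes above the floor (circles) and other genes of mean signal 5000 or more (squares). The members lie below all genes throughout, closely so under quantile normalization, and above 0 under spike-in scaling.

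Other gene lists of the translation apparatus had medians nearer 0 than the members on the first type and the same scaling. The lists were not matched for signal, and the part of signal level in this difference was not tested. The 19 members with a mean signal of 5000 or more had a median of -0.49. The 3 members next in signal had a median of -0.025, and the 4 dimmest above the floor one of -0.33. Of 15 measured mRNAs with a known oligopyrimidine tract that encode no ribosomal protein, 9 had a ratio below 0 and 4 were at or below the lower limit, with a median of -0.22. The brightest were Tpt1, which encodes a growth-related protein, at 22926 in knockout and 33316 in wildtype (log2 ratio -0.54), and the elongation factor Eef1a1 at 22229 and 32861 (-0.56). The translocase Eef2 of the same list read 9252 and 8391 (0.14). Of 8 measured genes of the elongation factor list 2 were below 0, with a median of 0.11. That list also holds the mitochondrial factors Tufm (0.43), Tsfm (0.08) and Gfm1 (0.21) and the kinase Eef2k (0.43). Its other measured genes were Eef1a1 and Eef2, given above, Eef1d (0.05) and Eef1b2 (-0.02). On the second type it measured Eef2k (0.45) and Eef1e1 (-0.60), neither itself an elongation factor.

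Initiation factors had a median of 0.084 over 32 genes, 13 of them below 0, and the brightest were the poly(A)-binding Pabpc1 at -0.24 and Eif3k at -0.09. On the second type Eif6, which keeps the subunits apart, was the 1 of 9 past 2-fold, at 441 in knockout and 202 in wildtype (log2 ratio 1.13), while on the first type it was 0.24. The median over those 9 was -0.01, and Eif1ax (-0.29) and Eif2b3 (-0.19) were brightest. Mitochondrial ribosomal proteins, which build the separate ribosome of mitochondria, had a median of -0.061 over 57 genes on the first type, with Mrpl18 at 0.14 and Mrpl52 at -0.11, and -0.18 over 15 on the second, with Mrps18c at -0.50 and Mrpl57 at -0.25. Mrps25 there was at least 2.24-fold higher, with the wildtype signal at the floor.

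Ribosome biogenesis factors had a median of -0.085 over 60 genes (first type) and -0.24 over 37 (second type). The nucleolar chaperone Npm1 read 7166 in knockout and 10498 in wildtype (-0.55), and Nhp2, a protein of the RNA-modifying H/ACA particles, 6847 and 9055 (-0.40). Past 2-fold were Esf1 (-1.01), the helicase Ddx27 (-1.08) and the exosome component Exosc10 (1.04) on the first type, and Esf1 (-1.32) and Nsa2 (at least 2.17-fold lower) on the second, where Nol6 (0.08) and Nat10 (0.18) were brightest. Nsa2 was at -0.22 on the first type, and Ddx27 at -0.22 on the second with signals of 373 and 434.

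Genes of RNA polymerase I, which makes the ribosomal RNA precursor, and of factors listed with it had a median of 0.15 over 14 genes. The brightest were Cavin1 (0.53), which encodes no subunit of the polymerase, and Polr1d (-0.20). On the second type the median over 3 genes was -0.70, further below 0 than the members' median on the first type. Twistnb stood at -0.70, Ubtf at 0.21, and the termination factor Ttf1 at -0.97 with signals of 211 and 414. On the first type Ubtf was at 0.41, and Ttf1 at 0.07 with signals of 271 and 258. Regulators of ribosome stress and mTOR signalling had a median of 0.092 over 13 genes, none past 2-fold, with Ddit4 at -0.06 and Cdkn1a at 0.06, and on the second type Larp1 stood at 0.28 and Rptor at 0.48. Fau, which encodes a small subunit protein fused to a ubiquitin-like one and falls outside the rule, read 101 and 117 (-0.21).

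**Figure D4:**
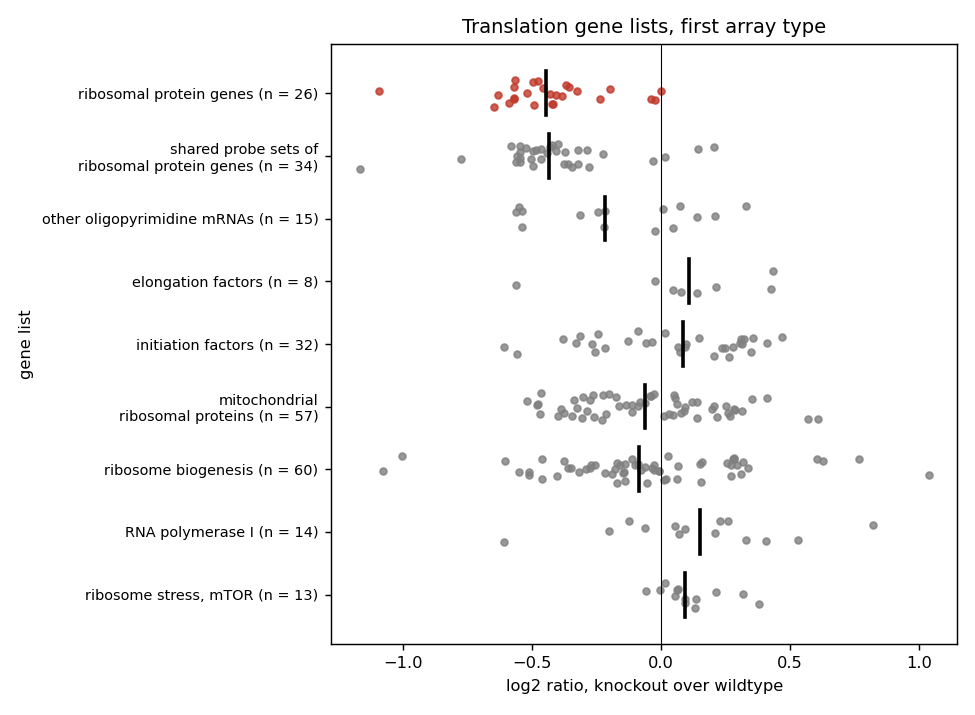
Log2 ratio of knockout over wildtype on the first array type for each gene above the floor in 9 lists, with black bars at the list medians. The ribosomal protein genes and the shared probe sets have medians of -0.44, the other lists medians between -0.22 and 0.15. The lists were not matched for signal. Under spike-in scaling the ribosomal protein median was 0.24 and that of all genes 0.70.

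Cell type markers moved between the same arrays. Of 23 measured dermal fibroblast markers 12 were at least 2-fold lower in knockout, from Fbln2 at -1.19 to Col3a1 at -3.66, and 5 were above 0, with Pdgfra highest at 0.53. The 4 brightest lay near 0, at -0.11 for Postn, -0.05 for Dcn, 0.08 for Fbln1 and 0.0070 for Col1a2. The summed signal of the 24 listed was 15144 in knockout and 24152 in wildtype. Red cell markers summed to 6112 and 22197, with 5 of 11 above the floor, 3 at least 2-fold lower (Hba-a1, Hbb-b2 and Alas2), Hbb-bh1 at least 2-fold higher and Klf1 at 0.82. Suprabasal epidermal markers, loricrin among them, summed to 176425 and 287463 over 13 genes, of which 10 were below 0. The brightest were Calm4 (-0.69) and Crct1 (-0.51). Keratins of this list differed in sign, with Krt1 at -0.51 and Krt10 at -0.47 but Krt77 at 0.21 and Krt2 at 0.25, and the bright Cdsn stood at 0.0092. Of 9 basal markers 4 were at least 2-fold higher (Itga6, Col17a1, Lamb3 and Trp63) and Itgb4 was at 0.04, with list sums of 5780 and 2937. Igfbp3 went the other way, at 25.7 in knockout and 218 in wildtype, but its mean signal lay below the floor. The probe sets of Krt5, Krt14 and Krt15 were below the floor in both arrays of this type. On the second type Krt15 read 26582 and 22304 (0.25), the basal Dst stood at 0.67 and the fibroblast gene Fbln5 at -1.70. Medians were -0.21 over 9 skeletal muscle markers, 0.12 over 13 of macrophages and mast cells, -0.83 over 2 of endothelium, 0.44 over 4 of melanocytes and 0.13 over 9 of the hair shaft. The 1 adipocyte marker above the floor was at -0.07. The part of these shifts in the ribosomal protein values was not tested.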

How the data were processed

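Total RNA was biotin-labelled and hybridised to 4 Affymetrix-type arrays. The deposited intensity values are MAS5 signals on a linear scale, per the submitters' processing notes; their version and scaling target were not given in the sources used here. The 2% trimmed means lay between 500.2 and 500.4. With 1 array per genotype and type, that number limits the precision.

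Within each type, knockout and wildtype arrays were brought to equal trimmed means, signals under a floor, the mean of both arrays' 40th percentiles, were raised to it, and knockout over wildtype was taken as a log2 ratio. The 66 control probe sets were left out after scaling. Genes were named from the platform annotation, and 10817 of 10833 single-gene probe sets on the first type were matched to a RefSeq (GRCm38.p6) gene for its current symbol. Genes other than members are compared by the same rules. A limma fit over both types was planned, but no member lies on both.

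Members and lists were chosen with earlier results of these data known. Named genes were the 5 brightest, the 5 lowest and 5 highest ratios, those past 1.5-fold, P-stalk, X-linked and paralogue members, and of other lists the 2 brightest and those past 2-fold (some cell type lists by median only); other genes named were chosen after their values were seen. Steps were tested on simulated data with Python 3.11.15 and statsmodels 0.14.6. Alternatives covered scaling, floor, value per gene and probe set suffixes.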

Additional observations from a re-analysis of the deposited data

How the results depend on the processing

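The members' median log2 ratio on the first array type, -0.44, was -0.41 with the median log2 ratio set to 0, -0.41 with the median over a gene's probe sets, -0.42 without shared-sequence suffixes and -0.43 with a floor at percentile 20. It was -0.15 under loess and -0.045 under quantile normalization. Under each, 2 genes were at a log2 ratio of -0.321928 or lower in place of 21. Below 0 were 26 genes under loess and 20 under quantile normalization, against 48.3% and 47.5% of all genes. Under spike-in scaling the members' median turned to 0.24, with 1 gene below 0 in place of 25 and 1 at -0.321928 or lower. Of all genes above the floor, 4.99% were below 0 there, in place of 47.3%, and their median was 0.70. On the second type the value of Rps19bp1, -0.38, was -0.37 with the median at 0, -0.39 under quantile normalization and under loess, and -0.35 with the floor as a pseudocount. Under spike-in scaling it was 0.27, with 0 genes below 0 or at -0.321928 or lower, and 8.59% of all genes below 0. A floor at percentile 20 lets Rpl27 in, and the median of the 2 genes was 0.32. The cause of the other changes was not tested. The planned limma fit had no member to test, and no replicate could be left out with 1 array per genotype and type. The signals of Rps29 and Rps13 lie near the floor.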
